A study of Mus musculus with 9 samples.

Results

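The globin genes of immature erythroid cells were followed through 10 rows of the authors' deposited table of 23285 genes, chosen by their names. Of these, 5 rows hold adult globins (Beta-s, Hbb-b1,Hbb-b2 and Hbb-b2 for the beta chain, Hba-a1,Hba-a2 and Hba-a2 for the alpha chain), 3 hold embryonic globins (Hbb-y, Hbb-bh1 and Hba-x) and 2 hold theta globins (Hbq1a and Hbq1b). All 10 were tested in each of the 3 comparisons. RNA sequencing had been done on CD71hi cells sorted from mouse bone marrow, in 9 libraries, 3 in each of 3 groups, all on a C57BL/6 background and all homozygous for the floxed TRIM28 allele. KOb came from TRIM28(flox/flox):Mx1Cre mice and was sorted as TER119-negative (severely deleted, per the labels). KOa came from mice of the same genotype and was sorted as TER119-positive (modestly deleted). The undeleted gene was given as 5% to 8% in KOa and 1% to 4% in KOb, with residual mRNA of 26% and 18%. FFa, the control, came from TRIM28(flox/flox) mice without Cre and was sorted as TER119-positive.

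Mx1Cre is driven by an interferon-inducible promoter that is not restricted to erythroid cells, and it was switched on with 5 poly(I:C) injections, the mice being studied 2 weeks after the last. The labels say neither whether FFa mice received poly(I:C) nor whether the 3 libraries of each group are separate animals. Cre and the deletion differ together, and in KOb the gate differs as well, so these cannot be told apart. Trim28 stood at 4.76 FPKM in KOb and 6.64 in KOa, against 26.0 in FFa. FPKM counts fragments scaled to transcript length and to library size, and how library size was set here was not given. Levels of different genes are thus per length, but reads shared by near-identical copies limit such comparison among the globin rows. Each group has 1 deposited FPKM value per gene, made from its 3 libraries, so no value carries an SD and the depth per library is unknown. The p-values measure the spread between these libraries, which may be technical.

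Hemoglobin is built from paired alpha-like and beta-like chains around heme. In the mouse the beta-like genes lie on chromosome 7, in an order that runs from the embryonic Hbb-y and Hbb-bh1 to the adult beta genes, and a distant locus control region loops to one of them at a time. The alpha-like genes lie on chromosome 11, with the embryonic Hba-x first and the adult alpha genes interleaved with theta genes. Embryonic globins are made by primitive red cells of the yolk sac and are silenced in adult marrow by repressors such as BCL11A, LRF and the TR2 and TR4 nuclear receptors, and TRIM28 is a corepressor brought to chromatin by zinc finger proteins.

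The near-identity of the copies decides which rows can be read singly, so the places where the copies differ are shown first. RefSeq (GRCm38.p6, the same assembly as the authors' mm10) lists Beta-s as a synonym of Hbb-bs, and the row lies at that gene (chr7:103826523-103827928, minus strand). The rows Hbb-b1,Hbb-b2 and Hbb-b2 both carry the coordinates chr7:103812524-103813923, where GENCODE M21 places Hbb-bt. In GENCODE M21 the coding sequences of Hbb-bs and Hbb-bt (441 bases each, stop codon not counted) differ at 1 base, C417T, counted from the first base of the start codon with the Hbb-bs base first. The stretches around it, chr7:103826668-103826722 for Hbb-bs and chr7:103812659-103812713 for Hbb-bt, are coding exon on the minus strand, with the differing base in capitals.
Hbb-bs: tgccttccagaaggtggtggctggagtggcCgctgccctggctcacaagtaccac
Hbb-bt: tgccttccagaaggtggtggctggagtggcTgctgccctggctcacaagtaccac

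The rows Hba-a1,Hba-a2 and Hba-a2 likewise share the coordinates chr11:32296489-32297310, at Hba-a2. The coding sequences of Hba-a1 and Hba-a2 (426 bases each) differ at 1 base too, C381T, with the Hba-a1 base first. The coding stretches around it are chr11:32284313-32284373 for Hba-a1 and chr11:32297130-32297190 for Hba-a2, both on the plus strand.
Hba-a1: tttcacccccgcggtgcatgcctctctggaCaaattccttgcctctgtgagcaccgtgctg
Hba-a2: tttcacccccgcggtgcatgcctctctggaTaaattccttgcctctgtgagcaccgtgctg

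The theta copies are further apart, with 93.8% identity over 435 aligned coding positions. Their first coding exons, chr11:32300118-32300212 for Hbq1a and chr11:32287013-32287107 for Hbq1b on the plus strand, are shown because these were the only globin rows past the threshold, with the 2 differing bases in capitals.
Hbq1a: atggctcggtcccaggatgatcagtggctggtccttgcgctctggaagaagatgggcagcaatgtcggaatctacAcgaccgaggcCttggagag
Hbq1b: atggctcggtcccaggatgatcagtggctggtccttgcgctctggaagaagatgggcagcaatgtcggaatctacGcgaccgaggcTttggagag

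Over the mature transcripts in GENCODE M21, 65.8% of the 50-base windows of Hbb-bs also occurred in Hbb-bt, and 86.9% of those of Hba-a2 also occurred in Hba-a1. For Hbq1a, 36.8% of the 50-base windows occurred in Hbq1b, and for Hbq1b 39.8% occurred in Hbq1a. None of the windows of Hbb-y, Hbb-bh1 or Hba-x occurred in another of these globin transcripts. At 100 bases the shares were 62.6% for Hbb-bs, 74.5% for Hba-a2, 24.4% for Hbq1a and 26.6% for Hbq1b. The read length was not known here. Rows were therefore also added up by chain, by locus and by class.

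Of the theta globins, Hbq1a fell in both mutants against FFa and Hbq1b fell in KOb, on the deposited scale. The sign of Hbq1b in KOb turned with the same sum over all genes. Its interval spanned both signs under that scaling and with the same sum over genes other than globins (values below). No adult or embryonic globin row passed the test in any of the 3 comparisons. In KOb against FFa, 2 of 10 globin rows were called lower and 0 higher at a q below 0.05, where 28% of the 10584 tested genes were called (15.2% lower, 12.8% higher). In KOa against FFa, 1 row was called, lower, where 22.1% of 10761 tested genes were called (14.1% lower, 7.99% higher). In KOb against KOa, 2 rows were called lower, where 16.2% of 10468 tested genes were called (6.19% lower, 10% higher). The share of globin rows called was below the background in KOb and KOa against FFa, and close to it between the mutants. The log2 ratio of the 10 rows had a median of -0.72 in KOb against FFa, where that of all tested genes was -0.01. It was -0.14 in KOa against FFa, beside -0.08 for all tested genes, and -0.61 in KOb against KOa, beside 0.05.

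**Figure D1:**
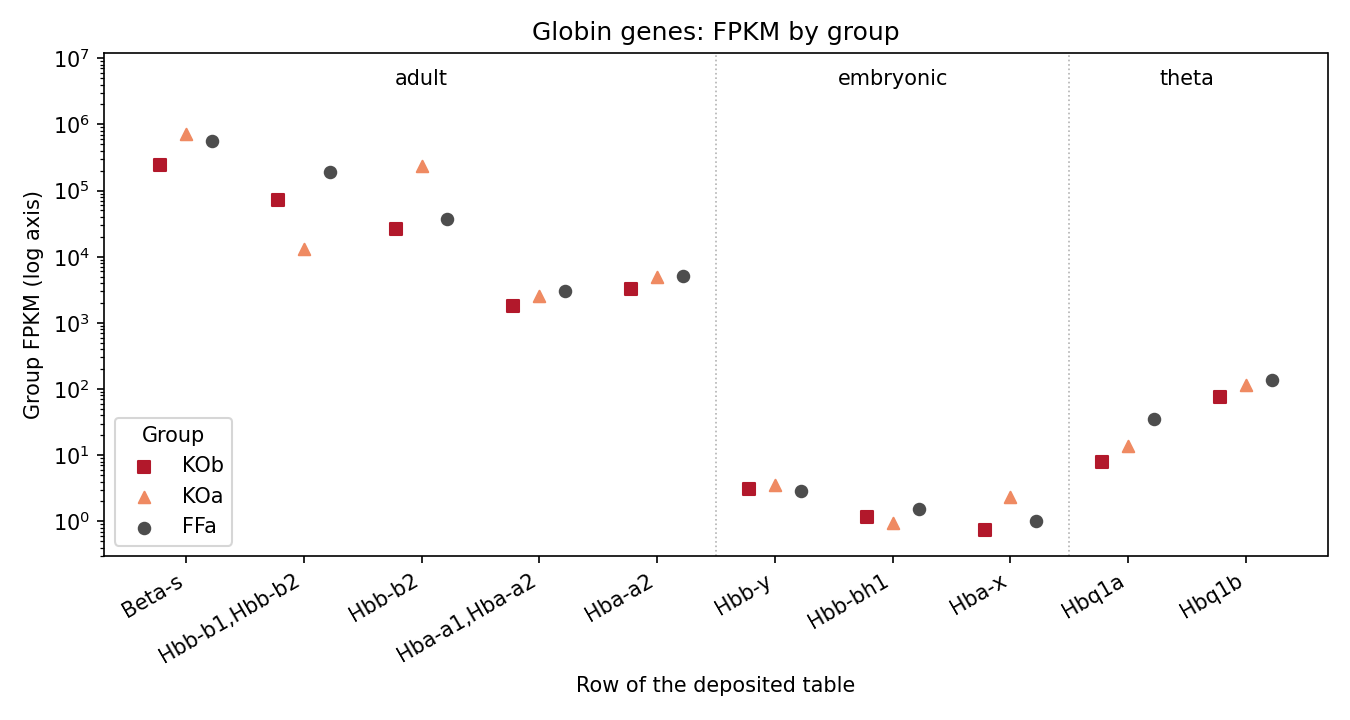
Group FPKM (log axis) of the 10 globin rows, 1 point per group (KOb squares, KOa triangles, FFa circles), with dotted lines between adult, embryonic and theta rows. The embryonic rows lie between 0.751 and 3.58 FPKM and the adult beta rows between 12883 and 715226 FPKM, and Hbq1a and Hbq1b stand lowest in KOb and highest in FFa on the deposited scale.

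Hbq1a and Hbq1b are alpha-like genes whose product has no established role in hemoglobin, with rows at chr11:32300069-32300873 and chr11:32286964-32287912. Hbq1a stood at 7.91 FPKM in KOb and 13.6 FPKM in KOa, against 35.6 FPKM in FFa. KOb was the lowest group and FFa the highest. In KOb the level was 22.2% of FFa, a log2 ratio of -2.17 ± 0.29 (q = 0.000619 in the authors' deposited table), where ± here and below is the standard error implied by the deposited test statistic. In KOa it was 38.4% of FFa, at -1.38 ± 0.26 and the same q in the authors' deposited table, which is the value at the table's smallest p, 5e-05.

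Hbq1b, the more abundant copy, stood at 75.2 FPKM in KOb and 114 FPKM in KOa, against 135 FPKM in FFa. It fell in KOb, to 55.7% of FFa (log2 ratio -0.84 ± 0.22, q = 0.000619 in the authors' deposited table). In KOa it stood at 84.5% of FFa, and its log2 ratio of -0.24 ± 0.22 did not pass (q = 0.334 in the authors' deposited table, interval -0.68 to 0.19). Intervals are 95% intervals that read the log2 ratio as normal with the implied standard error.

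Between the mutants, where the gate differs, Hbq1a in KOb was at 58.0% of KOa (log2 ratio -0.79 ± 0.32, q = 0.0174 in the authors' deposited table). Hbq1b in KOb was at 65.9% of KOa (-0.60 ± 0.23, q = 0.00443 in the authors' deposited table). Both of these calls were lost when the deposited statistic was read as a standard normal, with adjusted values of 0.143 and 0.105. Hbq1a made up 9.52% of the theta FPKM in KOb and 10.7% in KOa, against 20.9% in FFa, and the difference between the copies was not tested. How reads that fit both copies were divided is unknown. The 2 theta rows together gave 83.1 FPKM in KOb and 128 FPKM in KOa, against 171 FPKM in FFa. The log2 ratio of this sum was -1.04 in KOb and -0.42 in KOa against FFa, and it was not tested. All these ratios are on the deposited scale: with each group scaled to the same summed FPKM over all genes, the log2 ratio of Hbq1b in KOb against FFa turned to 0.066, and those of Hbq1a and Hbq1b in KOb against KOa turned to 0.17 and 0.35, while Hbq1a stayed lower in KOb (-1.26) and KOa (-1.42) against FFa. In KOa against FFa, Hbq1b turned to 0.29 with the same sum over genes other than globins. In KOb against FFa, the interval of Hbq1b ran from -0.36 to 0.50 with the same sum over all genes. With the same sum over genes other than globins it ran from -0.76 to 0.095 (log2 ratio -0.33).

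**Figure D2:**
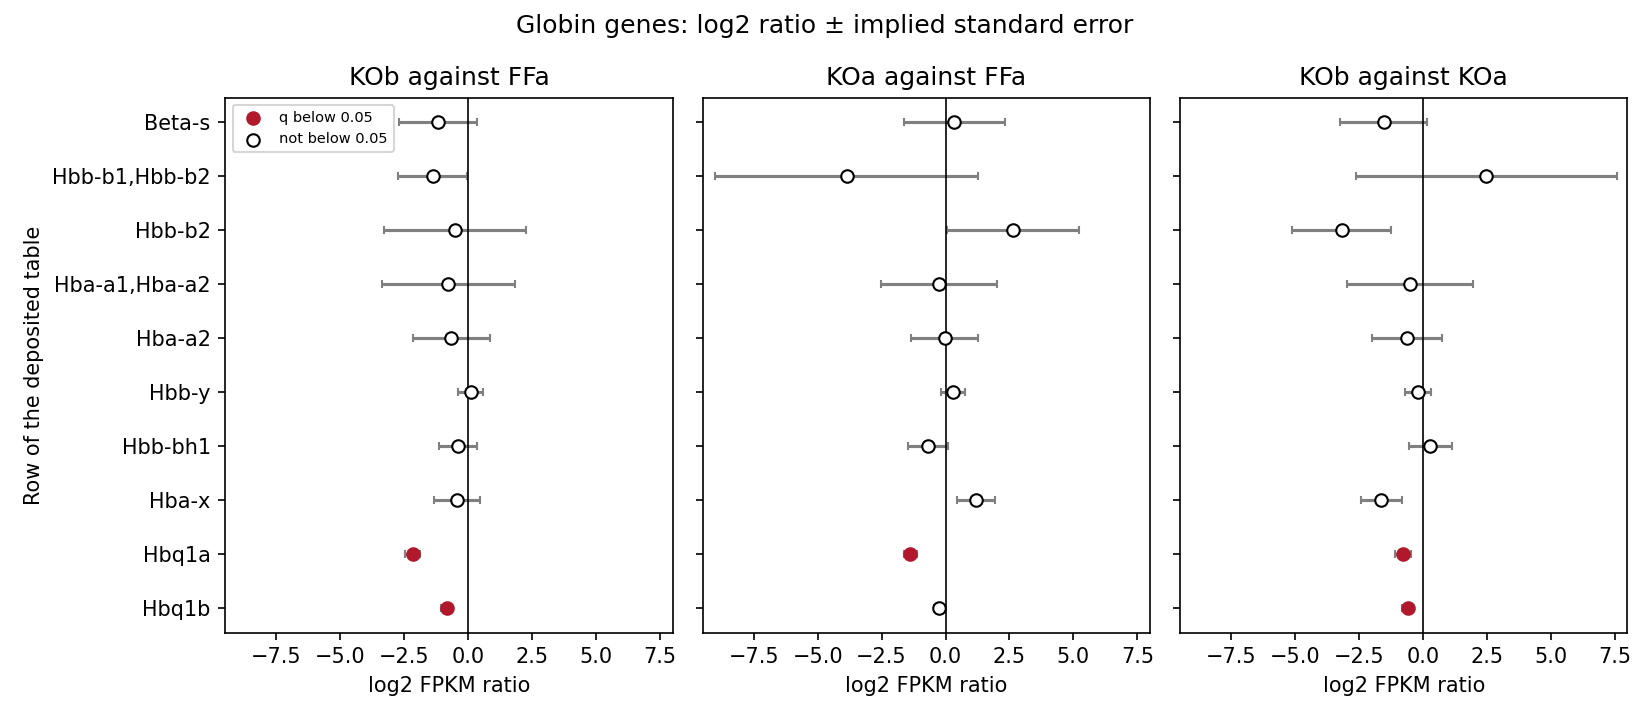
Log2 FPKM ratio of each globin row in the 3 comparisons, with the implied standard error as bars; filled points have a q below 0.05. Hbq1a is filled in all 3 panels and Hbq1b in KOb against FFa and KOb against KOa, while the bars of the adult rows span from 1.31 to 5.13 log2 units on each side.

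Upstream sequence of the theta copies is shown because both genes were called lower in KOb. It covers the 150 bases before the RefSeq start (GRCm38.p6), chr11:32299919-32300068 for Hbq1a and chr11:32286814-32286963 for Hbq1b on the plus strand, beside Hba-a2 (chr11:32296342-32296491, plus strand) as an adult alpha promoter and Hbb-y (chr7:103853208-103853357, minus strand) as an embryonic one. Capitals mark matches, on either strand, to GATAA (GATA factors), CCNCNCCC (bound by KLF factors), CCAAT (bound by NF-Y), TATAA (the TATA box) and GGTCA (a core of nuclear receptor sites).
Hbq1a: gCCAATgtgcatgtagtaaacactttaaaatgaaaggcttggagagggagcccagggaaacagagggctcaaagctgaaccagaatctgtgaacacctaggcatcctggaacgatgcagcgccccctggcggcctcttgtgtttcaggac
Hbq1b: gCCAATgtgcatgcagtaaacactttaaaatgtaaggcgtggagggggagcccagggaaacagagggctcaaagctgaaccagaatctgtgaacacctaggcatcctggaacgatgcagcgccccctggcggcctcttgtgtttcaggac
Hba-a2: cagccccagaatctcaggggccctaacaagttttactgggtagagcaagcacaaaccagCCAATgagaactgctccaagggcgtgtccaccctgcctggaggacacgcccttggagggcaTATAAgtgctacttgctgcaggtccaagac
Hbb-y: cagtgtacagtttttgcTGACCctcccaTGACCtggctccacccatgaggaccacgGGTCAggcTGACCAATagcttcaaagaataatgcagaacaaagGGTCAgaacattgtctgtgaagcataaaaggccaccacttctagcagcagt

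The theta windows differed from each other at 4 of 150 positions, although the 2 genes stood at different levels in every group. Each theta window held 1 CCAAT, a motif found in 24.5% of 32851 such windows, and no match to the other motifs. The Hba-a2 window held 1 CCAAT and 1 TATAA, the second of which occurred in 14.2% of windows. The Hbb-y window held 5 matches to GGTCA, present at least once in 23.1% of windows, and 1 CCAAT, which overlapped one of them. GATAA occurred in 13.3% of all windows and CCNCNCCC in 38.1%.

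Beta-s was the most abundant row of the table in every group. It stood at 247300 FPKM in KOb and 715226 FPKM in KOa, against 565663 FPKM in FFa. KOb was the lowest group and KOa the highest. The log2 ratio was -1.19 ± 1.52 in KOb against FFa (q = 0.551 in the authors' deposited table), and its interval ran from -4.18 to 1.79. It was 0.34 ± 1.98 in KOa against FFa (q = 0.922 in the authors' deposited table) and -1.53 ± 1.70 in KOb against KOa (q = 0.456 in the authors' deposited table).

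The 2 rows at Hbb-bt differed from FFa in opposite directions in KOa and in the same direction in KOb. The row Hbb-b1,Hbb-b2 stood at 72150.5 FPKM in KOb and 12883 FPKM in KOa, against 188597 FPKM in FFa, so KOa was lowest. The row Hbb-b2, at the same coordinates, stood at 26396 FPKM in KOb and 237717 FPKM in KOa, against 37795.5 FPKM in FFa, so KOa was highest. Hbb-b2 held 26.8% of the locus in KOb and 94.9% in KOa, against 16.7% in FFa. In KOa against FFa the deposited log2 ratios were -3.87 ± 5.13 for Hbb-b1,Hbb-b2 and 2.65 ± 2.58 for Hbb-b2. Neither passed, with q values of 0.475 and 0.320 in the authors' deposited table, and Hbb-b2 came nearest in KOb against KOa (-3.17 ± 1.93, q = 0.0639 in the authors' deposited table).

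Added up, the Hbb-bt locus gave 98546 FPKM in KOb and 250600 FPKM in KOa, against 226392 FPKM in FFa. That was 39.8% of Beta-s in KOb and 35.0% in KOa, against 40.0% in FFa. The summed adult beta rows gave 345846 FPKM in KOb and 965826 FPKM in KOa, against 792056 FPKM in FFa. With the embryonic rows added, the log2 ratio of the beta sum was -1.20 in KOb against FFa, 0.29 in KOa against FFa and -1.48 in KOb against KOa, with the same sign under each of the 3 other scalings. A sum of group values has no replicate error and was not tested. In these bulk samples fewer hemoglobin-making cells and less RNA per cell cannot be told apart.

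**Figure D3:**
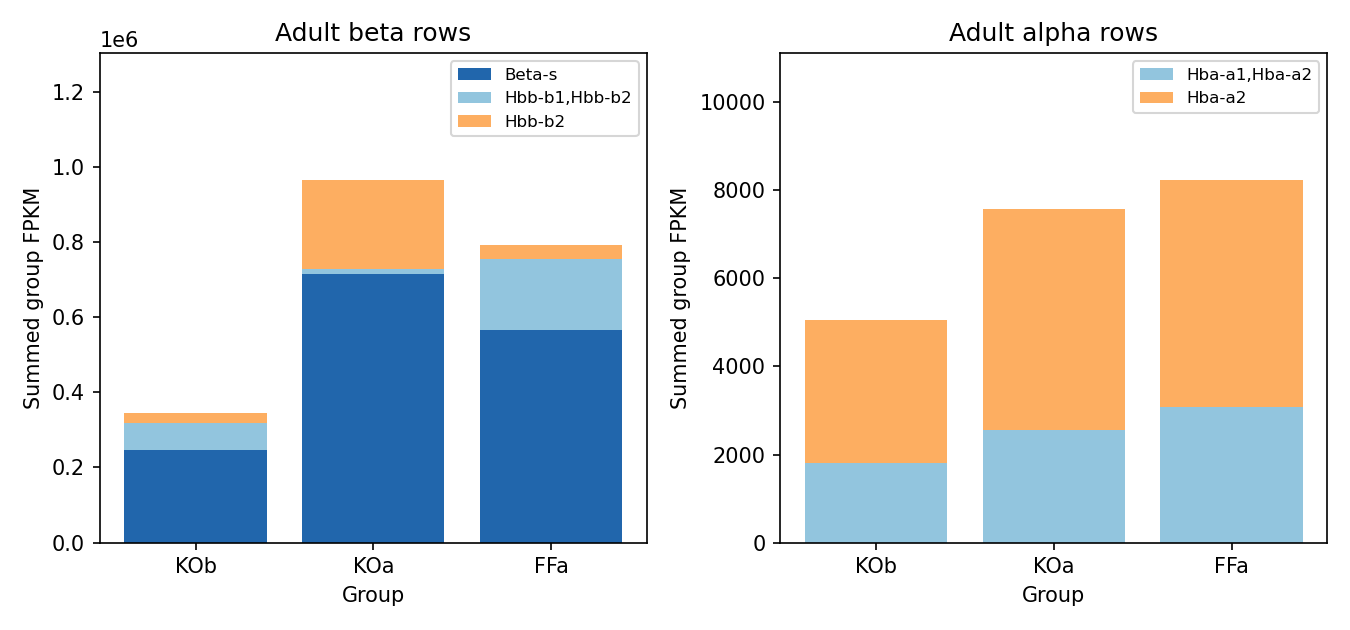
Summed group FPKM of the adult beta rows (left) and adult alpha rows (right) in KOb, KOa and FFa, stacked by row of the table. The 2 rows at the Hbb-bt coordinates trade places in KOa while their sum, 250600 FPKM, stays near the 226392 FPKM of FFa.

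Adult alpha globin was listed far below adult beta globin. The row Hba-a2 stood at 3256 FPKM in KOb and 5012 FPKM in KOa, against 5151 FPKM in FFa. The row Hba-a1,Hba-a2 stood at 1796 FPKM in KOb and 2558 FPKM in KOa, against 3083 FPKM in FFa. KOb was the lowest group in both rows. The log2 ratio of Hba-a2 was -0.66 ± 1.52 in KOb against FFa and -0.04 ± 1.31 in KOa against FFa, with q values of 0.657 and 0.978 in the authors' deposited table. For Hba-a1,Hba-a2 they were -0.78 ± 2.60 and -0.27 ± 2.27, with q values of 0.768 and 0.895 in the authors' deposited table.

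The 2 alpha rows shared the locus in steadier proportions than the beta rows, Hba-a2 holding 64.4% in KOb and 66.2% in KOa, against 62.6% in FFa. Their sum was 5052 FPKM in KOb and 7570 FPKM in KOa, against 8235 FPKM in FFa, or 1.46% of the adult beta sum in KOb and 0.784% in KOa, against 1.04% in FFa. Hemoglobin takes alpha and beta chains in equal number, so these percentages cannot be read as chain output. No row of the table was listed at the Hba-a1 gene itself. The summed alpha rows, theta and Hba-x included, had log2 ratios of -0.71 in KOb against FFa, -0.13 in KOa against FFa and -0.58 in KOb against KOa. The first and the third turned to 0.20 and 0.37 with the same sum over all genes, and the second turned to 0.41 with the same sum over genes other than globins.

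The adult rows were among the least precisely measured of the abundant genes. Their implied standard errors ran from 1.36 to 2.79 log2 units in KOb against FFa, where the median over the 458 tested genes with at least 100 FPKM in one group was 0.26 and the 95th percentile 1.08. For Beta-s the error was larger than that of 95.6% of these genes. Hbq1b, at a lower level, had an error of 0.22, smaller than that of 320 of the 458. In KOa against FFa the adult errors ran from 1.31 to 5.13, and in KOb against KOa from 1.36 to 5.10. A fall of adult beta globin in KOb as large as that of Hbq1a lay within the interval of Beta-s, and so did a rise.

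**Figure D4:**
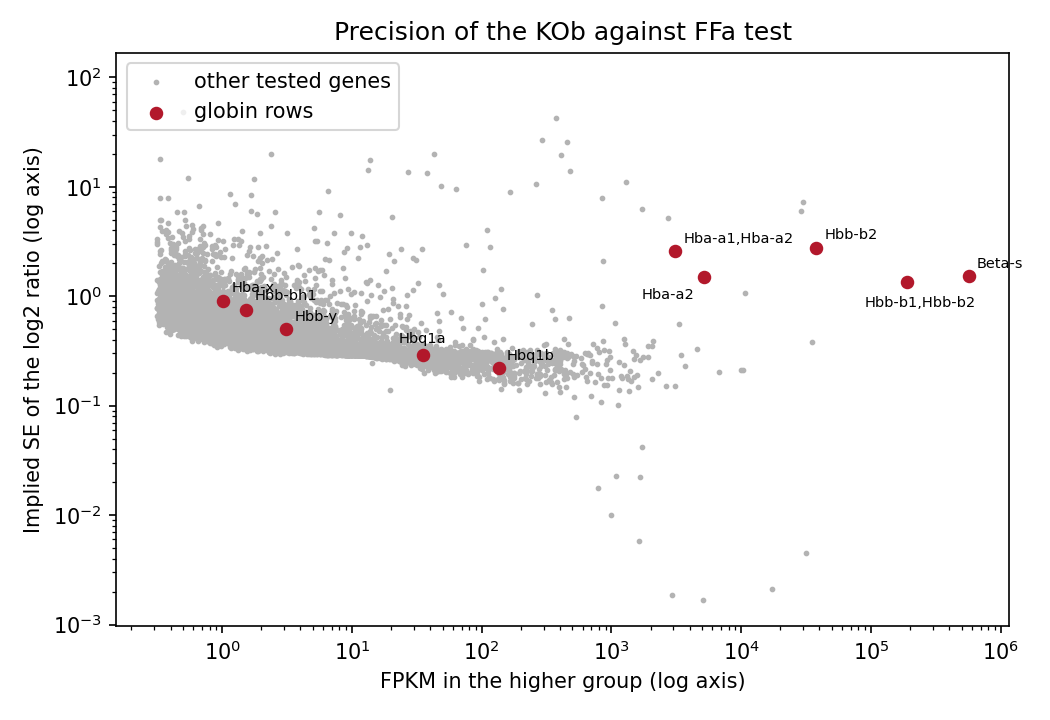
Implied standard error of the log2 ratio (log axis) against FPKM in the higher group (log axis) for all genes tested in KOb against FFa, globin rows in red. The 5 adult rows lie between 1.36 and 2.79, above the median of 0.26 for genes of at least 100 FPKM, while the theta rows lie with genes of their level.

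Embryonic globins stayed at trace levels in all groups. The rows lie at chr7:103851754-103853207 (Hbb-y), chr7:103841638-103843162 (Hbb-bh1) and chr11:32276600-32278115 (Hba-x). Hbb-y, the beta-like chain of primitive red cells, stood at 3.13 FPKM in KOb and 3.58 FPKM in KOa, against 2.93 FPKM in FFa. Its log2 ratio was 0.10 ± 0.50 in KOb (interval -0.88 to 1.07) and 0.29 ± 0.49 in KOa (interval -0.66 to 1.24) against FFa, with q values of 0.905 and 0.672 in the authors' deposited table. These intervals hold on the deposited scale. With the same implied errors, the interval in KOb ran from 0.029 to 1.98 (log2 ratio 1.01) with the same sum over all genes. That interval was positive throughout, but this scaling raises every gene alike, the median gene included. The error of the scaling itself is not counted in it. In KOa the interval ran from -0.12 to 1.78 (0.83) with the same sum over genes other than globins.

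Hbb-bh1, another embryonic beta-like gene, stood at 1.16 FPKM in KOb and 0.947 FPKM in KOa, against 1.52 FPKM in FFa. Both mutants were below FFa, and neither log2 ratio passed (-0.39 ± 0.74 in KOb and -0.68 ± 0.79 in KOa, q = 0.721 and 0.510 in the authors' deposited table). Hba-x, the embryonic alpha-like zeta globin, stood at 0.751 FPKM in KOb and 2.31 FPKM in KOa, against 1.02 FPKM in FFa. KOa was the highest group, with a log2 ratio of 1.18 ± 0.73 to FFa that did not pass (q = 0.186 in the authors' deposited table). With the same sum over genes other than globins that ratio was 1.72, with an interval from 0.29 to 3.15, positive throughout. That scaling too raises every gene alike in KOa against FFa, and its own error is not counted. In KOb against FFa the deposited log2 ratio of Hba-x was -0.44 ± 0.91 (q = 0.739 in the authors' deposited table). Between the mutants the log2 ratio of Hba-x was -1.62 ± 0.81 in KOb against KOa, and in the authors' deposited table its unadjusted p was 0.0317 and its q 0.108. The interval of this ratio ran from -3.21 to -0.031 as deposited, negative throughout. With the same sum over all genes it ran from -2.26 to 0.92.

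The 3 embryonic rows together came to 5.04 FPKM in KOb and 6.84 FPKM in KOa, against 5.47 FPKM in FFa. Of the summed FPKM of all globin rows this was 0.00144% in KOb and 0.000703% in KOa, against 0.000683% in FFa. The higher share in KOb stood beside a summed embryonic level that differed little from FFa (log2 ratio -0.12) and a lower adult sum, and it was not tested. Scaled to the same sum over all genes, the embryonic log2 ratio in KOb against FFa turned to 0.79, and to 0.39 with the same sum over genes other than globins.

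Genes near the globins were read for comparison. Within 100 kb of the globin genes of chromosome 7, the table lists 13 olfactory receptor genes, whose highest value in any group was 0.352 FPKM, and none was tested. Hbb-y was above that value in every group by several fold, and the lowest embryonic value, 0.751 FPKM for Hba-x in KOb, was above it too. Within 100 kb of the chromosome 11 genes lie 6 others, of which 4 were tested in at least 1 comparison and 0 were called in any. Nprl3, whose introns hold the enhancers of alpha globin, stood at 3.28 FPKM in KOb and 4.38 FPKM in KOa, against 5.49 FPKM in FFa (log2 ratio in KOb -0.74 ± 0.59, q = 0.0998 in the authors' deposited table). The adjoining DNA glycosylase gene Mpg stood at 10.7 FPKM in KOb and 13.0 FPKM in KOa, against 12.1 FPKM in FFa. Snrnp25, the most abundant of the 6, stood at 43.0 FPKM in KOb and 44.1 FPKM in KOa, against 37.8 FPKM in FFa. Its log2 ratio was 0.19 ± 0.24 in KOb and 0.22 ± 0.24 in KOa against FFa. No flanking gene was called beside the theta genes. Of all tested genes, 28% were called in KOb against FFa, 22.1% in KOa against FFa and 16.2% between the mutants. With so few neighbours tested, the lack of a call says little.

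The scale on which groups are compared moves the globin sums, because globins make up much of the total. All 10 rows held 53.3% of the summed FPKM of all genes in KOb and 76.3% in KOa, against 64.6% in FFa. On the deposited scale the median log2 ratio of genes with at least 1 FPKM in both groups was 0.02 in KOb against FFa, -0.05 in KOa against FFa and 0.05 in KOb against KOa. Scaling to the same sum over all genes moved every log2 ratio up by 0.91 in KOb against FFa and by 0.95 in KOb against KOa, the median gene included, and down by 0.04 in KOa against FFa. A scaling moves all genes alike, so the distance of a globin gene from the median gene was the same under each.

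**Figure D5:**
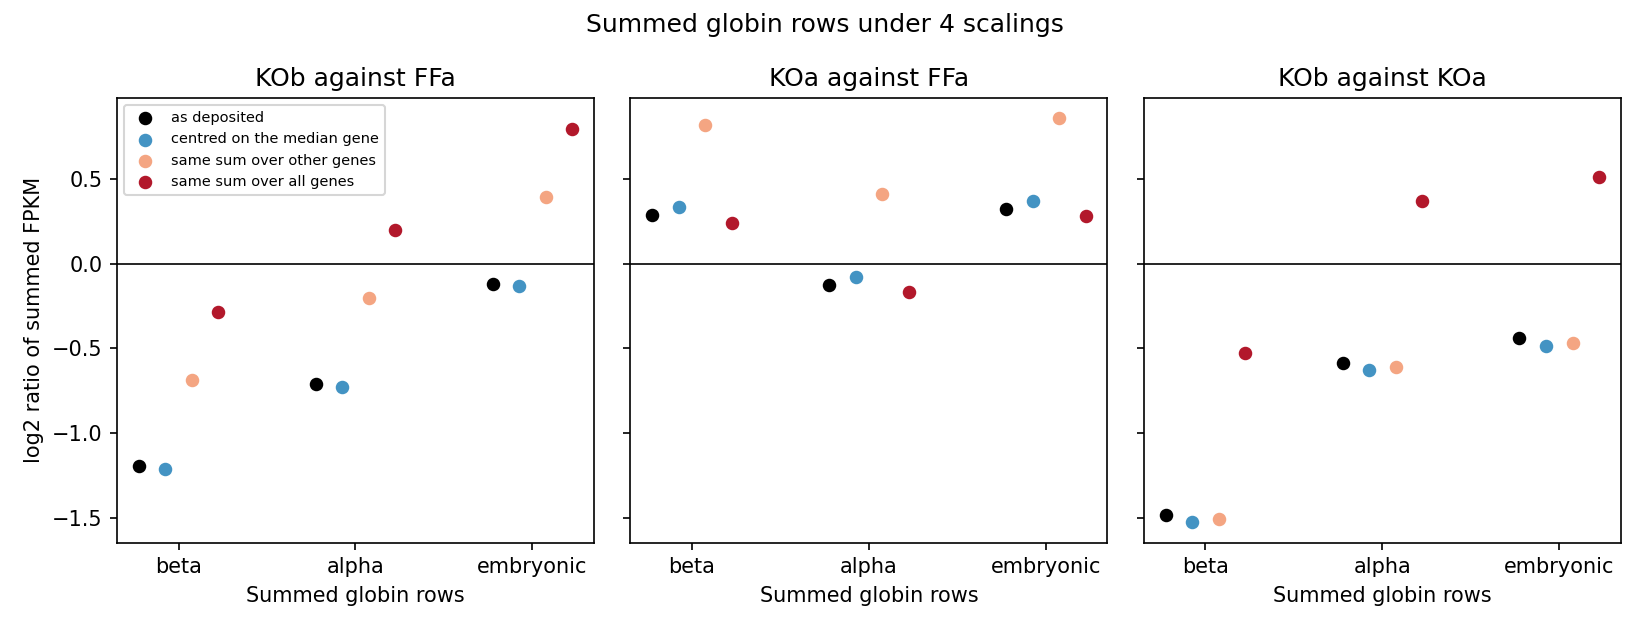
Log2 ratio of the summed beta, alpha and embryonic globin rows in the 3 comparisons, as deposited, centred on the median gene, and scaled to the same summed FPKM over genes other than globins or over all genes. The beta sum keeps its sign in each panel, at -1.20, 0.29 and -1.48 as deposited, while the alpha and embryonic sums change sign under some scalings.

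Globin chains need heme, and Alas2, which encodes the first enzyme of heme synthesis in erythroid cells, was called lower in both mutants. It stood at 861 FPKM in KOb and 1167 FPKM in KOa, against 2082 FPKM in FFa, with log2 ratios of -1.27 ± 0.39 and -0.84 ± 0.40 (q = 0.000619 and 0.00405 in the authors' deposited table). From a list of 7 symbols on globin balance and heme, 5 genes were found. Neither symbol of the alpha globin chaperone gene, Ahsp or Eraf, was among them. Of the 5, 3 fell and 0 rose in KOb against FFa (median log2 ratio -0.61). In KOa against FFa 2 fell and 1 rose (median -0.44). That was 60% of the 5 in each comparison, where 28% and 22.1% of all tested genes were called. Hmox1, the heme-degrading oxygenase, fell in KOb (-0.86 ± 0.28), and Bach1, a heme-sensing repressor of globin and Hmox1, rose in KOa (0.86 ± 0.33). Usp15, a deubiquitinase gene, fell in both, by 0.61 ± 0.28 and by 0.51 ± 0.28 on the log2 scale. In KOb against KOa, 0 of the 5 were called, where 16.2% of all tested genes were. When the deposited test statistic was taken as standard normal, the calls of Alas2 and Hmox1 in KOb were kept (adjusted p 0.0207 and 0.0359), while those of Alas2, Bach1 and Usp15 in KOa and of Usp15 in KOb were lost (adjusted p 0.251, 0.103, 0.374 and 0.226).

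Most factors listed as activators of adult globin genes were not called. Of 12 tested, 3 fell and 0 rose in KOb against FFa. The median log2 ratio of the list was -0.31, beside -0.01 for all tested genes. In KOa against FFa 1 fell and 1 rose, with a median of 0.04, beside -0.08. These calls were 25% of the list in KOb, against the background of 28%, and 16.7% in KOa, against 22.1%. Klf1, which binds the adult beta promoter, stood at 62.0 FPKM in KOb and 80.6 FPKM in KOa, against 79.2 FPKM in FFa, and was not called in any comparison. Gata1, the master factor of red cell genes, stood at 105 FPKM in KOb and 138 FPKM in KOa, against 118 FPKM in FFa, and was not called either. Zfpm1, the GATA1 partner FOG1, rose in KOa against FFa (0.48 ± 0.29, q = 0.0348 in the authors' deposited table) and was lower in KOb than in KOa (-0.78 ± 0.29). Tal1 was also lower in KOb than in KOa (-0.46 ± 0.29, q = 0.0371 in the authors' deposited table). Those were the 2 of 11 tested that were called between the mutants, or 18.2%, against 16.2% of all tested genes. Tcf3 and Ssbp3 fell in KOb against FFa, by 0.51 ± 0.30 and by 0.43 ± 0.29. Bach2 was the only gene of the list called lower in both mutants (-3.05 ± 0.51 in KOb and -3.55 ± 0.59 in KOa). It pairs with small Maf proteins but is better known as a B cell factor, so its place among activators is uncertain. The B cell markers given further on were lower too. Under the standard normal reading both calls of Bach2 were kept, while those of Tcf3, Ssbp3, Tal1 and Zfpm1 were lost (adjusted p 0.413, 0.521 and 0.472 for Tcf3, Ssbp3 and Tal1, 0.436 for Zfpm1 in KOa against FFa and 0.0805 for Zfpm1 in KOb against KOa).

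Some genes that silence embryonic globins were called. Of 22 tested, the deleted Trim28 among them, 2 rose and 3 fell in KOb against FFa (median log2 ratio 0.04), and 0 rose and 4 fell in KOa against FFa (median -0.07). These calls were 22.7% of the list in KOb, against the background of 28%, and 18.2% in KOa, against 22.1%. Bcl11a, the main repressor of embryonic and fetal globins, stood at 10.9 FPKM in KOb and 6.71 FPKM in KOa, against 4.79 FPKM in FFa. It rose in KOb against FFa (1.18 ± 0.42, q = 0.000619 in the authors' deposited table). The arginine methyltransferase gene Prmt5 rose in KOb as well (1.19 ± 0.32), and Sox6, which acts with BCL11A, fell (-0.57 ± 0.30, q = 0.00871 in the authors' deposited table). In KOa against FFa, the progenitor factor gene Myb fell by 1.05 ± 0.33 and Ehmt2, encoding the histone methyltransferase G9a, fell by 1.23 ± 0.42. In KOb against KOa 4 of the 22 were higher and 0 lower, with Myb at 1.25 ± 0.33, Prmt5 at 1.12 ± 0.32 and Ehmt2 at 1.04 ± 0.42. The 4 calls were 18.2% of the list, near the background of 16.2% (10% higher, 6.19% lower). The receptor genes Nr2c1 and Nr2c2, which encode TR2 and TR4, were not called in any comparison. Read as a standard normal, the statistic kept the calls of Trim28 and Prmt5 in KOb, of Trim28 and Myb in KOa, and of Myb and Prmt5 between the mutants. It ended those of Bcl11a and Sox6 in KOb (adjusted p 0.0696 and 0.320) and of Ehmt2 in KOa and between the mutants (0.0505 and 0.140).

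Klf2, a factor needed for normal embryonic beta-like globin levels in mouse yolk sac, stood at 1.70 FPKM in KOb and 3.97 FPKM in KOa, against 12.3 FPKM in FFa. It fell in both mutants against FFa (-2.85 ± 0.39 and -1.63 ± 0.33, q = 0.000619 each in the authors' deposited table) and was lower in KOb than in KOa (-1.22 ± 0.42). Carhsp1, an RNA-binding protein gene of the same list, fell in KOb against FFa by 0.75 ± 0.28. Under the standard normal reading the Klf2 calls against FFa were kept, and those of Klf2 between the mutants and of Carhsp1 in KOb against FFa were lost (adjusted p 0.0562 and 0.0796). Of the 7 genes listed as active in the embryonic or fetal program only 3 were tested, and Lin28b, Igf2bp1, Igf2bp3 and Hmga2 stood below 0.2 FPKM in every group.

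The labelled cell type was checked on 12 erythroid markers, of which 11 were found, all above 0 in each group. Their summed level was 2441 FPKM in KOb and 3956 FPKM in KOa, against 4006 FPKM in FFa. In KOb against FFa 5 of the 11 fell and 0 rose, in KOa against FFa 0 were called, and in KOb against KOa 6 fell. These calls were 45.5%, 0% and 54.5% of the 11, where 28%, 22.1% and 16.2% of all tested genes were called. None of these calls was kept under the standard normal reading, which left 0 of 5 and 0 of 6. The lower marker sum moved with the lower adult globin sums of KOb, and its part in them was not tested.

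Markers of other marrow cells were present and were mostly lower in the mutants. All 8 B cell markers were found and fell in both mutants against FFa, with a summed level of 19.6 FPKM in KOb and 20.9 FPKM in KOa, against 230 FPKM in FFa. The 10 granulocyte markers summed to 13420 FPKM in KOb and 16571 FPKM in KOa, against 48830 FPKM in FFa, with 6 lower and 2 higher in KOb. S100a8 at 34935 FPKM and S100a9 at 10284 FPKM made up most of the sum in FFa. The 2 higher, Ctsg and Mpo, were also called higher in KOa. Elane and Prtn3 stood higher in both mutants too but were not called. The macrophage list held 8 symbols for 7 genes, as Adgre1 and Emr1 name 1 gene. These 7 summed to 33.6 FPKM in KOb and 58.8 FPKM in KOa, against 86.6 FPKM in FFa. The 8 megakaryocyte markers summed to 56.3 FPKM in KOb and 69.8 FPKM in KOa, against 38.6 FPKM in FFa, and of 6 tested 3 were higher and 2 lower in KOb, and 3 higher and 1 lower in KOa, against FFa. Calls made up all B cell and macrophage, 80% of granulocyte and 83.3% of tested megakaryocyte markers in KOb against FFa. Of all tested genes, 28% were called there. In KOa against FFa, all B cell, 60% of granulocyte, 57.1% of macrophage and 66.7% of tested megakaryocyte markers were called. Of all tested genes, 22.1% were. No marker of these lists stood at 0 in any group, and their part in the globin results was not tested.

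Genes with a pattern like that of the globin sums were taken as the 3 of 314 other genes, at 100 FPKM or more in every group, whose log2 ratios in KOa and KOb against FFa lay nearest to those of the sum. Both ratios share the FFa value, and the likeness rests on 3 group values. For the beta sum the nearest were the histone genes Hist2h2ac and Hist1h2bh, at distances of 0.28 and 0.29 log2 units. For the alpha sum they were Ucp2, an uncoupling protein gene of mitochondria, at 0.0062, the ribosomal protein gene Rpl41 at 0.021 and the histone gene Hist1h2bm at 0.026. For the embryonic sum, at far lower levels, they were Tspo (0.021), Pglyrp1 (0.043) and Ndufa6 (0.049).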

How the data were processed

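The submitters' processing notes name the build mm10 and the tools Cuffdiff 2.1.1, TopHat2 2.0.8b and Bowtie2 2.1.0, and the labels' protocols name a NuGEN Encore library kit. The gene annotation, the read length, the use of strand, the handling of reads that fit several genes and the scaling were not given in the sources used. Group FPKM values fill the single table that the authors deposited, with their log2 ratio with no pseudocount, a test statistic (a score) and its p-value and q-value. Recomputing showed the deposited q to be the Benjamini-Hochberg adjustment over all 31813 tested results of the 3 comparisons (largest difference 5.27e-07).

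Calls are q below 0.05 with a completed Cuffdiff test. Implied standard errors are the size of the log2 ratio over that of the statistic. Sums, shares, scalings, sequence windows and motif matches were computed with Python 3.11.15, pandas 2.3.3, scipy 1.17.1 and Biopython 1.88, and the adjustment and scaling steps were tested on simulated data. Promoters came from RefSeq (8 globin genes matched by symbol) and transcripts from GENCODE M21 (9 matched). The members, the 10 gene lists and the tests were chosen with earlier results of these data known. Named list genes are the called members of largest change (up to 3 per comparison with at least 1 FPKM in the higher group) and the most abundant member of each list. Klf1, Gata1, Sox6, Nr2c1, Nr2c2 and the neighbouring genes were named after their values were seen. One gene that the likeness rule chose is not reported here. The neighbour window of 100 kb and the motifs were also chosen after the data were seen.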

Additional observations from a re-analysis of the deposited data

Results flagged for a closer look

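Hbq1a and Hbq1b differed between the 2 mutants, whose ratios to FFa can be compared directly through the deposited KOb against KOa test. The log2 ratio of KOb over KOa was -0.79 ± 0.32 for Hbq1a (q = 0.0174 in the authors' deposited table). For Hbq1b it was -0.60 ± 0.23 (q = 0.00443 in the authors' deposited table). The gate and the degree of deletion both differ between these groups.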

How the results depend on the processing

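No paired analysis was possible because the deposited table holds 1 value per group and none per library, and leaving out a replicate could not be run for the same reason. The scalings of single genes and the alternatives for the regulator and marker lists were chosen after seeing the data. Taking the statistic as standard normal, calls among the globin rows in KOb against KOa numbered 0, against 2 as reported (adjusted p 0.143 for Hbq1a and 0.105 for Hbq1b), and calls among all regulator list genes numbered 6 against 13 in KOb against FFa, 4 against 10 in KOa against FFa and 2 against 8 in KOb against KOa. The globin calls in KOb and KOa against FFa kept their number and their genes (Hbq1a and Hbq1b, and Hbq1a) under each alternative for calls.

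With the same sum over all genes, the log2 ratios in KOb against FFa were -0.28 for the beta, 0.20 for the alpha and 0.79 for the embryonic sum, and 0.066 for Hbq1b. In KOb against KOa they were -0.53, 0.37 and 0.51 for these sums, 0.17 for Hbq1a and 0.35 for Hbq1b. With the same sum over genes other than globins, the beta, alpha and embryonic sums were at -0.69, -0.20 and 0.39 in KOb against FFa and at 0.82, 0.41 and 0.86 in KOa against FFa, where Hbq1b was at 0.29. Without the rows that join 2 genes, the log2 ratio of the embryonic share in KOa against FFa turned to -0.33, against 0.04. The cause was not tested. A sum counted as unmoved where it shifted by less than the smallest implied standard error of its rows. With no depth per library, no detection limit can be given for the embryonic genes.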

Other observations

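Globin-family genes outside the adult, embryonic and theta rows were listed near 0 and were not tested. The beta-like gene Hbb-bh2, between the adult and embryonic beta genes, was listed at 0 in KOb and 0.121 FPKM in KOa, against 0.210 FPKM in FFa. The myoglobin gene Mb stood at 0.078 FPKM or less in every group, Cygb (cytoglobin) at 0.129 FPKM or less and Ngb (neuroglobin) at 0.119 FPKM or less.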
